A study of Mus musculus with 24 samples.

Results

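The genes that build cholesterol and fatty acids were followed through the first postnatal days of 2 sensory nuclei of the mouse thalamus. They are 34 genes, chosen by annotated symbol and not by their values, of 18194 genes that the arrays measured with 1 symbol. Each gene was read from its brightest probe set, by the mean of the 24 arrays. The 34 genes comprise 6 of the mevalonate pathway, 11 that lead from squalene to cholesterol, 5 regulators of the SREBP transcription factors, 5 of fatty acid synthesis, 6 of fatty acid elongation and desaturation, and the sterol carrier Stard4.

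Cells make cholesterol from acetyl-CoA through mevalonate, isoprenoids and squalene, and make fatty acids from the same precursor. When sterols in the membrane of the endoplasmic reticulum are low, the escort protein Scap carries SREBP to the Golgi, where it is cleaved and released to switch on most enzymes of both routes, and the Insig proteins hold the complex back when sterols are plentiful. The brain makes nearly all of its own cholesterol, because plasma lipoproteins do not cross the blood-brain barrier, and growing axons, synapses and later myelin draw on that supply.

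The mice were wild type on a C57BL/6 background. The embBE mice had lost both eyes to cautery before birth, and control mice were not enucleated. Tissue was microdissected from brain sections at P4 and at P0 (postnatal days) from the VB, the ventrobasal complex that relays touch, and from the dLGN, the dorsal lateral geniculate nucleus that relays vision and lost its retinal input in embBE mice. Each sample pooled the tissue of littermates of the same condition. There were 3 arrays in each of the 8 groups of nucleus, day and condition, except for 4 embBE and 2 control arrays of dLGN at P0. Every array label ends in 2 numbers (39_3, for example), which the sources used here do not explain. No first number of a label recurs between P4 and P0, so age cannot be told apart from litter or from any other difference between these sets of samples. The p-values measure the spread between such pools, which may in part be technical.

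The values are log2 signals, so that a difference of 1 is a doubling, and the levels of different probe sets are not compared with each other. In tissue, fewer cells of a type and less RNA per cell cannot be told apart. Rorb, a nuclear receptor gene that the study describes in neurons of the somatosensory thalamus and of the dLGN, was higher in VB than in dLGN in all 4 groups (by 1.59 to 1.77). The homeobox genes Lhx2 (-1.95 to -1.29) and Lhx9 (-1.05 to -0.57) were lower. Each of the 3 genes had an adjusted p (Benjamini-Hochberg, over all genes) under 0.05. The arrays differed in quality. The 3′ minus 5′ signal of the actin control probe sets, which grows when RNA or its copies are shortened, lay between 1.98 and 2.55 on the VB embBE arrays, against 3.06 to 4.27 on the dLGN embBE arrays, without overlap. Among controls it lay between 1.95 and 4.29 in VB and between 2.21 and 4.13 in dLGN. The SD of all signals on an array was narrowest on 6 arrays, where it was 2.17 to 2.26, against up to 2.42 elsewhere. On 1 of them, P4-VB-control 36_3, 21 of the 34 genes had their lowest value of the group, as did 39.1% of all genes. On P0-dLGN-embBE 39_3 this was so for 19 of 34, and for 31.3% of all genes, and on P0-dLGN-embBE 35_3, also among the 6, for 0 of 34 and 13.2%. P0-dLGN-control 39_5, not among the 6 and in a group of 2 arrays, was the lower for 24 of 34 and for 47% of all genes.

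**Figure D1:**
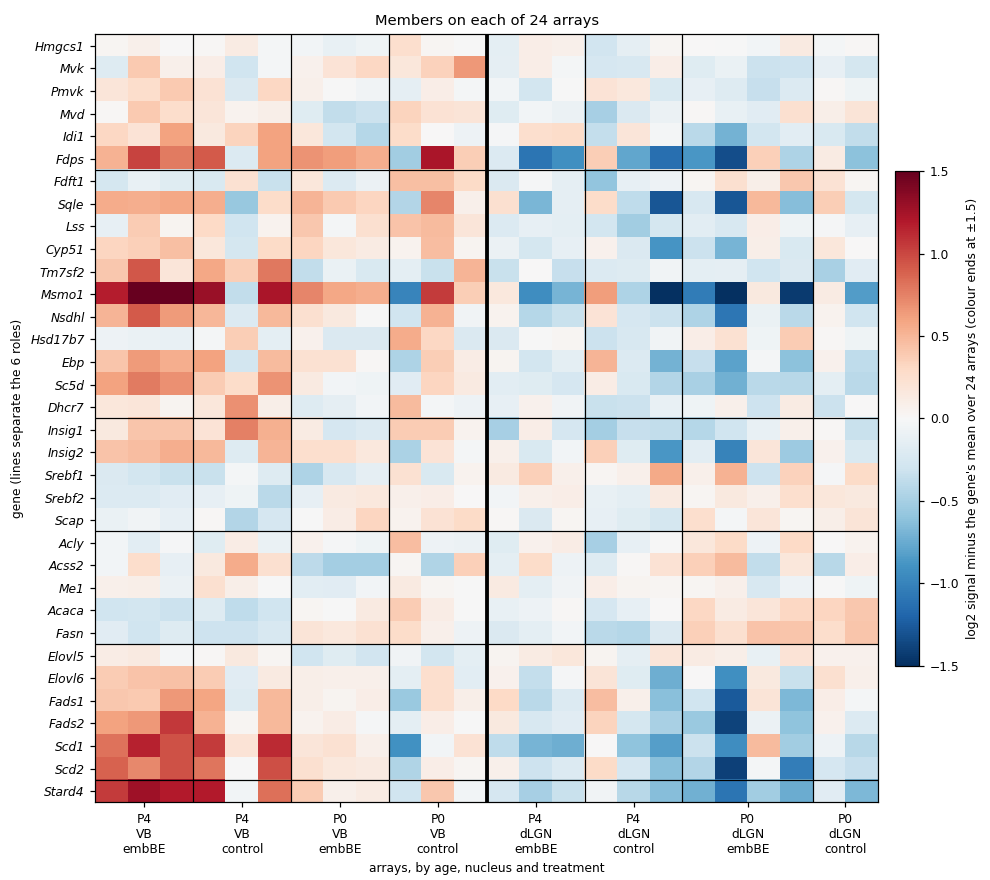
Heat map of the 34 genes (rows, by role) on the 24 arrays (columns, by nucleus, day and condition). Colour gives the log2 signal minus the mean of the gene over all arrays, from -1.5 to 1.5; the P4 VB embBE columns hold the highest group mean for 16 of the 34 genes.

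The heat map shows where each gene was highest. The group with the highest mean was P4 VB embBE for 16 genes, P4 VB control for 5 and P0 VB control for 7, whereas the lowest mean was in P0 dLGN embBE for 13 genes and in P4 dLGN control for 10. The share of all genes was not computed. On average, the P4 VB embBE arrays also had the widest SD of all signals (2.40) and the lowest actin 3′ minus 5′ signal (2.01) of the groups. The P0 dLGN embBE arrays had the narrowest SD (2.26) and the highest actin signal (3.72). The spread between arrays of a group had a median SD of 0.22 over the 34 genes, beside 0.20 over all genes. It was widest for Msmo1 (0.85), Fdps (0.60) and Sqle (0.55), and narrowest for Fasn, Hmgcs1 and Elovl5 (0.10 each), so that the same difference is more certain for Fasn than for Msmo1.

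Promoters are shown here because most of these genes are known targets of SREBP. RefSeq (GRCm38.p6) gave a start site for 27 of the 34 genes, and the 250 bases before it were read. The letters TCACNCCAC, a form of the sterol regulatory element to which SREBP binds, were searched on both strands and occurred in 1 of the 27, Hmgcs1, against 1.22% of 27025 genes. CCAAT, the letters of the SREBP partner NF-Y, occurred in 22 of the 27, against 37.5% of all genes. It occurred in all 14 matched genes of the mevalonate pathway and of the squalene to cholesterol steps, in 4 of 5 SREBP regulators, in 3 of 5 fatty acid synthesis genes and in 1 of 3 matched genes of elongation and desaturation. GGGCGG, the letters of Sp1, occurred in 22 of the 27, against 35.4%. A match of letters is no measured site. The windows below belong to Insig1 (chr5:28071162-28071411, plus strand), Sc5d (chr9:42264301-42264550, minus strand) and Tm7sf2 (chr19:6067851-6068100, minus strand), which were higher in VB than in dLGN, and to Hmgcs1 (chr13:119690101-119690350, plus strand), which alone held both kinds of letters. Capitals mark CCAAT, here always read as ATTGG, its reverse complement, and in Hmgcs1 also TCACCCCAC.
Insig1: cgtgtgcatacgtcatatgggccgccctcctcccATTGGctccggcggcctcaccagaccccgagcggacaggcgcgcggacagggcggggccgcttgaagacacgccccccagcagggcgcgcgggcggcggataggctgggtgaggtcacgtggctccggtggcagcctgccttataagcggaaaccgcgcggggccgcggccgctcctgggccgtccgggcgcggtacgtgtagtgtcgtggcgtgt
Sc5d: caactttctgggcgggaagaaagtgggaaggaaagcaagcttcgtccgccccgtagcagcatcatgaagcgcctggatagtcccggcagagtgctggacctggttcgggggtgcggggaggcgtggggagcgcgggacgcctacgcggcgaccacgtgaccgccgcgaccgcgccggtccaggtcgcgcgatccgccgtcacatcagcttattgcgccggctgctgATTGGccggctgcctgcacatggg
Tm7sf2: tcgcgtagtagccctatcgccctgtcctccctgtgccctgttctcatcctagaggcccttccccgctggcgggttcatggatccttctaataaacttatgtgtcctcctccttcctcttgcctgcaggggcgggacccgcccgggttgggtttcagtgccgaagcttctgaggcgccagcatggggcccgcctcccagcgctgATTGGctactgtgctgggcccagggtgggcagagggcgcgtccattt
Hmgcs1: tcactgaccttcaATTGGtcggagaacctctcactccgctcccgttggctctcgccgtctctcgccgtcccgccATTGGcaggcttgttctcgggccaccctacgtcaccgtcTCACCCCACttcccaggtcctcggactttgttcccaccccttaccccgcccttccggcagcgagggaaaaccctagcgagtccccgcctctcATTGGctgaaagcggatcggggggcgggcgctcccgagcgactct

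To ask whether the loss of the eyes altered these genes, embBE arrays were set against control arrays of the same nucleus and day. At the threshold of the study (a fold change of at least 1.5 with an unadjusted p under 0.05), limma called 0 of the 34 genes in each of the 4 comparisons. That threshold was passed by 0.159% of all genes in VB at P4, 0.726% in VB at P0, 0.198% in dLGN at P4 and 0.445% in dLGN at P0. No gene on the array had an adjusted p under 0.05 in any of the 4. The median difference of the 34 genes was 0.13 in VB at P4 and -0.06 in VB at P0, beside -0.02 and -0.03 over all genes. In dLGN it was 0.09 at P4 and -0.08 at P0, beside 0.01 and 0.03. All 34 genes were brighter than the median probe set. With dimmer genes left out, the medians over all genes were 0.04 in VB at P4 and 0.01 in VB at P0. In dLGN they were then -0.0007 at P4 and -0.05 at P0. The medians of the 34 genes moved with single arrays and settings. In VB at P4 the median was 0.02 without P4-VB-control 36_3 and 0.22 without P4-VB-control 24_2, and in VB at P0 it was -0.0023 without P0-VB-control 35_2 and -0.16 with the actin signal as a covariate. In dLGN it was 0.04 at P4 without P4-dLGN-control 40_1, and at P0 it was 0.02 under cyclic loess normalization and -0.17 with the mean of the probe sets of each gene. The 95% intervals still reached a 1.5-fold difference for 14 and 18 of the 34 genes in VB at P4 and P0, and for 13 and 15 in dLGN, so changes of that size were not excluded for these genes.

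**Figure D2:**
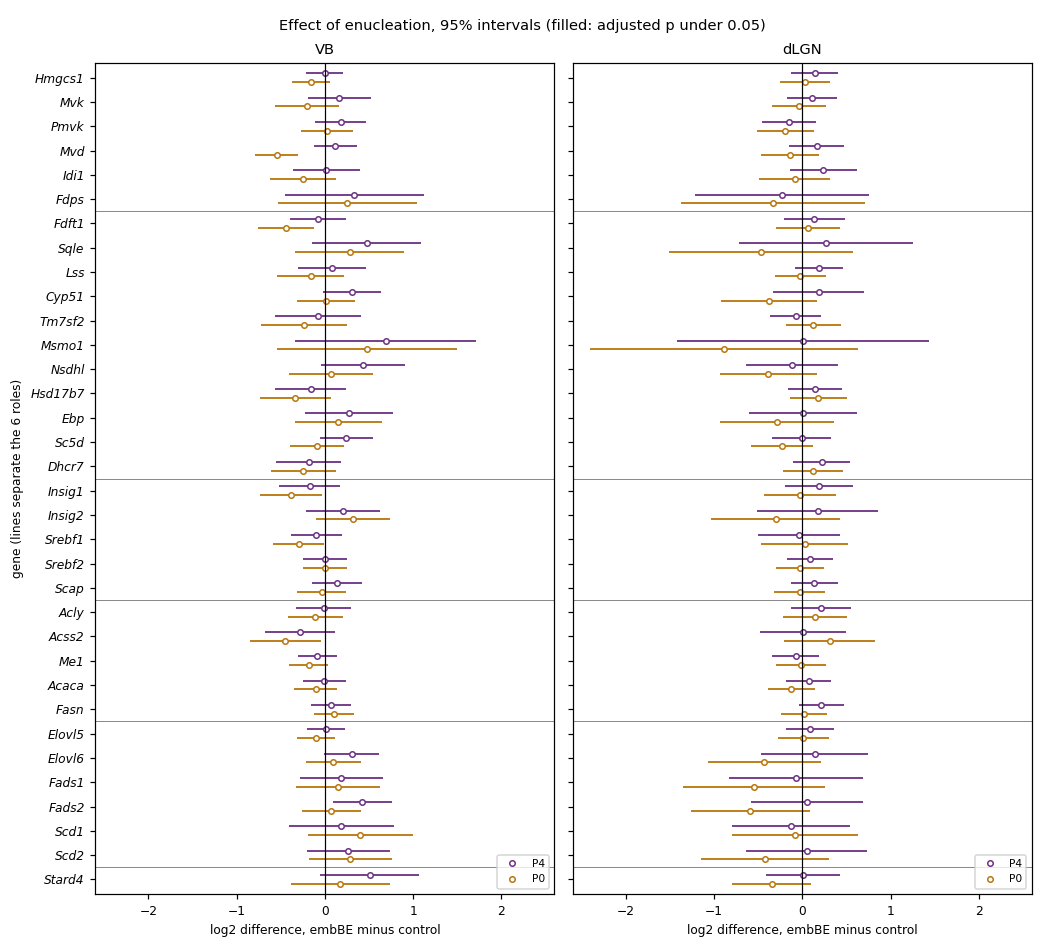
Difference of embBE minus control (log2) for the 34 genes in VB and dLGN at P4 and P0, with 95% intervals. No gene had an adjusted p under 0.05; the estimates ran from -0.89 for Msmo1 in dLGN at P0 to 0.69 for Msmo1 in VB at P4.

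Below that threshold, 1 of the 34 genes had an unadjusted p under 0.05 in VB at P4, 5 did in VB at P0, and 0 did in dLGN at either day. Of all 18194 genes, 724 and 1219 did in VB at P4 and P0, and 236 and 433 in dLGN. The gene at P4 was Fads2, the desaturase that begins the synthesis of long polyunsaturated fatty acids. It read 10.56, 10.61 and 11.03 on the VB embBE arrays, against 10.49, 10.00 and 10.46 on the VB control arrays (difference 0.42 ± 0.15 (SE), adjusted p = 0.751). The clearest of the 5 at P0 was Mvd, the decarboxylase that ends the mevalonate steps, at 7.93, 7.73 and 7.78 on the embBE arrays, against 8.45, 8.33 and 8.30 on the control arrays. The groups did not overlap, and the difference was -0.55 ± 0.11 (adjusted p = 0.679), short of 1.5-fold. The other 4 at P0 were Fdft1, the squalene synthase (-0.44 ± 0.15), Acss2, which makes acetyl-CoA from acetate (-0.45 ± 0.18), Insig1 (-0.38 ± 0.16) and Srebf1 (-0.30 ± 0.13). All 5 estimates at P0 were below 0 on the brightest probe sets, whereas the second probe sets gave 0.20 for Acss2, 0.001 for Fdft1 and -0.14 for Mvd. The other probe sets of Fads2 gave 0.09 and 0.01 at P4.

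The share of genes whose groups did not overlap was near that of all genes. In VB at P4 there were 5 of 34 (Sqle, Cyp51, Nsdhl, Elovl6 and Fads2, all above the controls), against 12.2% of all genes. In VB at P0 there were 5 (Hmgcs1, Mvd, Fdft1 and Me1 below the controls and Scd2 above), against 12%. In dLGN there were 2 at P4 (Lss and Fasn, above), against 4.85%, and 3 at P0 (Pmvk, Sc5d and Acaca, below), against 9.98%. Single arrays decided which genes came near the threshold. Without P4-VB-control 24_2 limma called Sqle and Stard4 in VB at P4. In VB at P0, Mvd was called without P0-VB-embBE 35_3, Scd1 without P0-VB-control 39_5, and 3 genes (Fdps, Sqle and Acss2) without P0-VB-control 35_2. In dLGN at P0, 3 genes (Fads1, Fads2 and Scd2) were called without P0-dLGN-embBE 39_4, and Stard4 without P0-dLGN-control 39_5.

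The embBE difference itself was then compared between days and between nuclei. Of the 34 genes, 1 passed the threshold of the study between P4 and P0 in VB, where 0.346% of all genes did, and it was Mvd. Its embBE difference was 0.66 ± 0.16 greater at P4 than at P0 (adjusted p = 1), since the embBE arrays read 8.13, 8.50 and 8.37 at P4, against 8.29, 8.16 and 8.19 on the P4 control arrays. Without P4-VB-embBE 36_2 the value was 0.58 and Mvd fell just short of 1.5-fold, and its second probe set gave 0.62 without a call. In dLGN 0 genes passed, against 0.418% of all genes. Between VB and dLGN, 0 genes passed at P4, against 0.478%, and 1 passed at P0, against 2.54%. That gene was Acss2, at -0.76 ± 0.32 (adjusted p = 0.551). It read 9.60, 9.49 and 9.49 on the VB embBE arrays against 10.02, 9.54 and 10.35 on the VB control arrays, and 10.35, 10.46, 9.62 and 10.16 on the dLGN embBE arrays against 9.58 and 10.10 on the dLGN control arrays. This rests on the brightest probe set. The second, also bright, gave embBE differences of 0.20 in VB and -0.34 in dLGN, and their difference was 0.54, of the opposite sign and without a call. Without P0-dLGN-embBE 39_3 no gene passed there, without P0-dLGN-embBE 39_4 6 did, and without P0-VB-embBE 35_3 3 did. Without P0-dLGN-control 35_1 the only gene to pass was Fdft1, and without P0-VB-control 39_5 it was Hsd17b7. Cyp51 passed between days in dLGN without P4-dLGN-control 24_2, and Stard4 passed between nuclei at P4 without P4-VB-control 24_2.

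To ask how these genes moved in the first postnatal days, P4 arrays were set against P0 arrays of the same nucleus and condition. Mvd, Sc5d and Fads2 rose in VB of embBE mice, Acaca fell in VB of controls and Fasn fell in dLGN of controls. For age and for nucleus, a gene was called when its adjusted p was under 0.05. In VB of embBE mice 3 of the 34 genes were higher at P4 than at P0 (Mvd, Sc5d and Fads2), against 2.69% of all genes, and 0 were lower, against 0.731%. In VB of control mice 0 were higher, against 2.32%, and 1 was lower (Acaca), against 1.45%. In dLGN of embBE mice 0 were higher and 0 lower, against 0.632% and 0.390%, and in dLGN of control mice 0 were higher and 1 was lower (Fasn), against 0.253% and 0.308%. At an unadjusted p under 0.05, 16 of the 34 genes passed in VB of embBE mice (13 higher at P4, 3 lower), against 16.9% of all genes, and 13 in VB of controls (7 higher, 6 lower), against 19.1%. In dLGN 4 passed in embBE mice (2 higher, 2 lower), against 11.7%, and 5 in controls (all lower), against 9.63%. The median change of the 34 genes was 0.27 in VB of embBE mice, 0.12 in VB of controls, 0.03 in dLGN of embBE mice and -0.13 in dLGN of controls, beside -0.04, -0.03, 0.01 and 0.04 over all genes. With genes dimmer than the median probe set left out, the medians over all genes were -0.0084, -0.0066, 0.0099 and -0.03. With the actin signal as a covariate the median of the 34 genes was 0.19 in VB of embBE mice and -0.0008 in VB of controls. In VB of controls it was 0.03 without P0-VB-control 35_1 or P4-VB-control 24_2 and 0.20 without P4-VB-control 36_3. In dLGN of embBE mice it was 0.07 without P0-dLGN-embBE 35_3 and -0.0045 without P0-dLGN-embBE 39_4, and in dLGN of controls it was -0.20 without P0-dLGN-control 39_5 and -0.07 without P0-dLGN-control 35_1. The P4 and P0 arrays did not overlap for 26 of the 34 genes in VB of embBE mice (22 above, 4 below), against 38.5% of all genes, and for 8 in VB of controls (1 above, 7 below), against 16.3%. In dLGN this was so for 6 in embBE mice, against 12.1%, and for 10 in controls, against 24.3%.

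**Figure D3:**
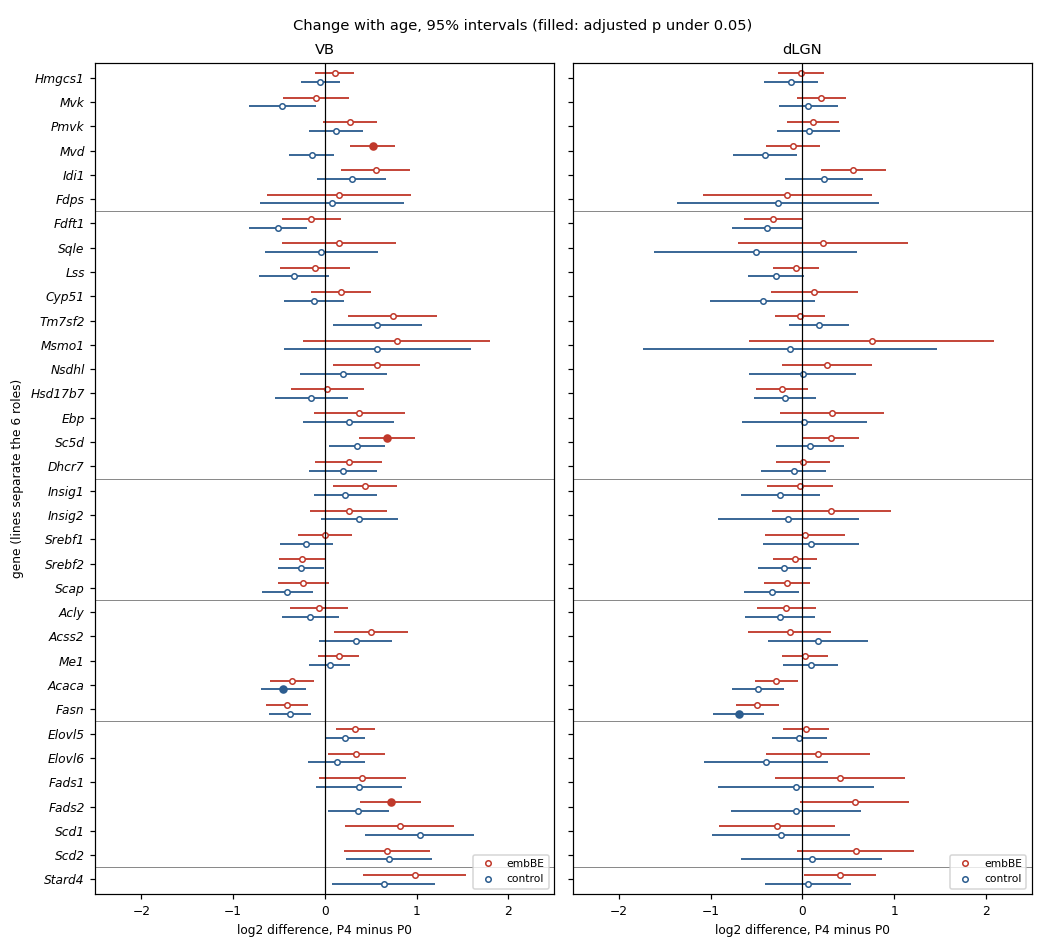
Difference of P4 minus P0 (log2) for the 34 genes by role, in VB and dLGN of embBE and control mice, with 95% intervals; filled points have an adjusted p under 0.05. Fasn and Acaca lie below 0 for both conditions in each panel. The 6 genes of elongation and desaturation lie above 0 for both conditions in the VB panel, each read from its brightest probe set.

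In the mevalonate pathway, Mvd read 8.13, 8.50 and 8.37 on the P4 VB embBE arrays, against 7.93, 7.73 and 7.78 on the P0 VB embBE arrays. Every P4 array lay above every P0 array, and the rise was 0.52 ± 0.11 (adjusted p = 0.0249). In controls Mvd differed by -0.14 in VB and by -0.41 ± 0.16 in dLGN (adjusted p = 0.408 in dLGN). Idi1, which isomerizes the first isoprenoid unit, had a difference of 0.55 ± 0.17 in VB and 0.56 ± 0.16 in dLGN of embBE mice (adjusted p = 0.117 and 0.147). Mvk, mevalonate kinase, had -0.46 ± 0.17 in VB of controls (adjusted p = 0.15), with 0.05 on its second probe set. On its brightest probe set Hmgcs1, which makes the precursor of mevalonate, held between -0.12 and 0.11 in all 4 comparisons. Its other bright probe sets gave 0.55, 0.65 and -0.14 in dLGN of embBE mice. In VB they reached 0.38 in embBE and 0.34 in control mice. Pmvk and Fdps, a kinase and the synthase of farnesyl diphosphate, had no p under 0.05. The median of the 6 genes was 0.21 in VB of embBE mice and 0.01 in VB of controls.

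Among the steps from squalene to cholesterol, Sc5d, a sterol desaturase close to the end of the pathway, read 8.47, 8.65 and 8.55 on the P4 VB embBE arrays, against 8.0, 7.83 and 7.80 on the P0 VB embBE arrays. These arrays did not overlap, and the rise was 0.68 ± 0.14 (adjusted p = 0.021). In VB of controls the difference was 0.35 ± 0.14 (adjusted p = 0.198). Its probe sets did not move alike: the second gave 0.33 and the third 0.04 in VB of embBE mice. Tm7sf2, a sterol reductase, had 0.74 ± 0.22 in embBE and 0.57 ± 0.22 in control VB, and Nsdhl, a sterol dehydrogenase, had 0.56 ± 0.22 in embBE VB (adjusted p = 0.104, 0.188 and 0.213). Fdft1, at the head of this branch, had the opposite sign, with -0.51 ± 0.15 in VB of controls (adjusted p = 0.078). The other genes of this branch, Sqle, Lss, Cyp51, Msmo1, Hsd17b7, Ebp and Dhcr7, had no p under 0.05 for age, and Msmo1, an oxidase that removes methyl groups from sterols, had a difference of 0.78 in VB of embBE mice, with an SD within groups of 0.85. Of the 11 genes, 9 had an estimate above 0 in VB of embBE mice, 6 in VB of controls, 7 in dLGN of embBE mice and 4 in dLGN of controls.

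None of the 5 regulators was called for age. Srebf2, the SREBP gene most tied to cholesterol synthesis, had -0.25 ± 0.11 in VB of embBE mice and -0.26 ± 0.11 in VB of controls, with 0.02 on its second probe set in embBE mice, and Scap had -0.41 ± 0.13 in VB and -0.33 ± 0.14 in dLGN of controls, none with an adjusted p under 0.05. Insig1, itself an SREBP target, had 0.43 ± 0.16 in VB of embBE mice (adjusted p = 0.182). Insig2 and Srebf1, whose product favours fatty acid genes, had no p under 0.05 for age.

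Of the 5 genes of fatty acid synthesis, Acaca and Fasn had estimates below 0 in all 4 comparisons. Acaca, the acetyl-CoA carboxylase that commits carbon to fatty acids, read 9.78, 9.59 and 9.68 on the P4 VB control arrays, against 10.35, 10.09 and 9.96 on the P0 VB control arrays, with no overlap. Its difference was -0.45 ± 0.11 (adjusted p = 0.0439). In the other 3 comparisons its difference was -0.36 ± 0.11 in VB of embBE mice, -0.28 ± 0.11 in dLGN of embBE mice and -0.48 ± 0.13 in dLGN of controls, with no adjusted p under 0.05. Fasn, the fatty acid synthase, read 10.49, 10.47 and 10.68 on the P4 dLGN control arrays, against 11.17 and 11.32 on the P0 dLGN control arrays. Its difference was -0.69 ± 0.13 (adjusted p = 0.0378). In the others it was -0.49 ± 0.11 in dLGN of embBE mice, -0.41 ± 0.10 in VB of embBE mice and -0.38 ± 0.10 in VB of controls (adjusted p = 0.0546, 0.0517 and 0.0673). For both genes the P4 arrays lay below the P0 arrays in each of the 4 comparisons. Of the suppliers of acetyl-CoA and of reducing power, Acss2 had 0.50 ± 0.18 in VB of embBE mice (adjusted p = 0.182), and Acly and Me1 had no p under 0.05.

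On their brightest probe sets, the 6 elongation and desaturation genes had positive estimates in VB of both conditions. Fads2 read 10.56, 10.61 and 11.03 on the P4 VB embBE arrays, against 10.02, 10.08 and 9.95 on the P0 VB embBE arrays, a rise of 0.72 ± 0.15 (adjusted p = 0.0243). In VB of controls its difference was 0.37 ± 0.15 (adjusted p = 0.22). Scd1, which makes monounsaturated fatty acids, had 0.82 ± 0.27 in embBE and 1.03 ± 0.27 in control VB (adjusted p = 0.143 and 0.059), and Scd2, its main brain relative, had 0.68 ± 0.22 and 0.70 ± 0.22. The second probe set of Scd2, also bright, gave 0.39 in embBE and -0.63 in control VB, and that of Scd1 gave 0.25 and 0.11. Elovl5, an elongase of polyunsaturated fatty acids, had 0.33 ± 0.10 and 0.22 ± 0.10, Elovl6, an elongase of saturated fatty acids, had 0.34 ± 0.14 in embBE VB, and Fads1 had no p under 0.05, with -0.10 and -0.42 on its second probe set. Stard4, which moves cholesterol between membranes, had 0.98 ± 0.26 in embBE VB, 0.64 ± 0.26 in control VB and 0.41 ± 0.18 in dLGN of embBE mice (adjusted p = 0.0604, 0.2 and 0.392).

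**Figure D4:**
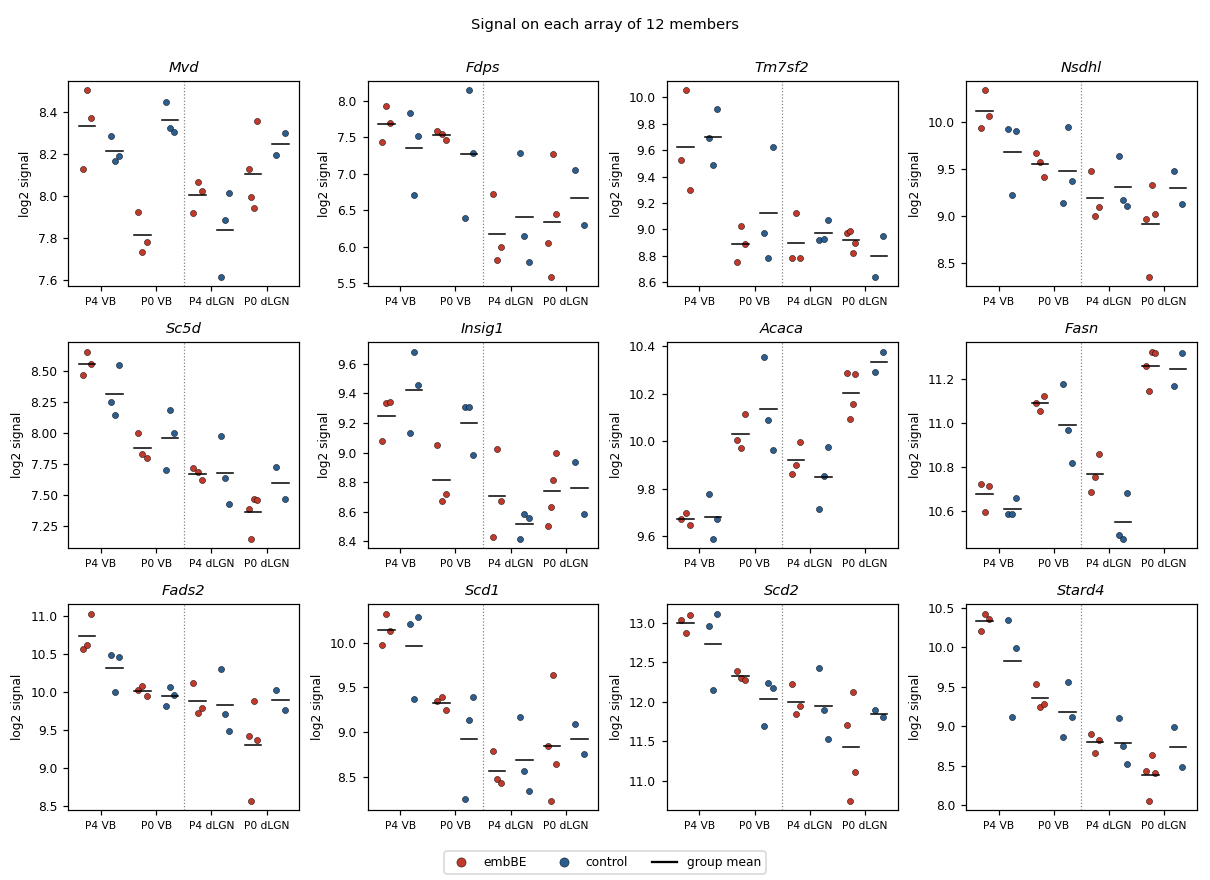
Log2 signal of 12 of the genes on each array (points), with the group mean (bar), by nucleus, day and condition. Stard4 sits between 10.20 and 10.42 on the P4 VB embBE arrays and between 8.66 and 8.90 on the P4 dLGN embBE arrays, and Fasn lies lower at P4 than at P0 in both nuclei and conditions.

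The calls for age rest on few arrays. In VB of embBE mice, leaving out P0-VB-embBE 39_3, P0-VB-embBE 39_4, P4-VB-embBE 36_2 or P4-VB-embBE 40_3 left 0 of the 34 genes called, Fads2 was lost without P0-VB-embBE 35_3, and Sc5d was lost without P4-VB-embBE 24_4. In VB of controls, 6 genes (Fdft1, Insig2, Fads2, Scd1, Scd2 and Stard4) were called without P4-VB-control 36_3 and 3 (Acaca, Fasn and Scd1) without P0-VB-control 39_5, and 0 without any of the other 4 arrays. The call of Fasn in dLGN of controls was kept without P4-dLGN-control 40_1 and lost without each of the other 4. The differences between nuclei in the change with age were not called for any of the 34 genes, against 0.0550% of all genes in embBE mice and 0.0220% in controls. The largest was Scd1, at 1.09 ± 0.43 in embBE mice and 1.26 ± 0.47 in controls (adjusted p = 0.928 and 0.651).

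Marker genes of glia moved with age in the same arrays, and the shares of all genes called for age are those given above. Of 11 astrocyte markers, 5 were higher at P4 in VB of embBE mice and the same number in VB of controls, with Aqp4 at 3.91 and 3.72 and S100b at 3.33 and 2.91, and 2 were higher in dLGN of embBE mice and 1 in dLGN of controls. The mean level of the list lay between 9.74 and 9.80 on the P4 VB embBE arrays against 8.63 to 8.77 at P0, and between 9.60 and 9.87 on the P4 VB control arrays against 8.61 to 9.06. In dLGN it lay between 9.22 and 9.53 at P4 against 8.28 to 8.70 at P0 in embBE mice, and between 9.38 and 9.61 against 8.79 to 8.88 in controls. Of 14 oligodendrocyte lineage markers, 3 were higher at P4 in VB of each condition (Gpr17 by 1.68 in embBE and 1.24 in control mice, Bcas1 by 1.78 and 1.48, Olig2 by 0.46 and 0.68). The part of these cells in the age differences was not tested.

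Neighbouring lipid pathways were read beside these genes, against the shares of all genes called for age given above. Of 18 genes of sterol uptake, export and turnover, 2 were higher at P4 in VB of embBE mice, Abca1, which exports cholesterol (0.70 ± 0.14, adjusted p = 0.0187), and Lcat, which esterifies it in lipoproteins (0.44 ± 0.10, adjusted p = 0.0344), and Abca1 was also higher in VB of controls (0.76 ± 0.14, adjusted p = 0.0125). Of 19 genes of fatty acid activation and elongation, Acsl4, an acyl-CoA synthetase, and Elovl4, an elongase of very long chains, were higher in VB of embBE mice (0.79 ± 0.16 and 0.67 ± 0.15) and of controls (0.84 ± 0.16 and 0.84 ± 0.15). Of 14 genes of sphingolipid and myelin lipid synthesis 1 was higher in VB of embBE mice, the ceramide desaturase Degs1 (0.39 ± 0.10, adjusted p = 0.0498). Of 15 genes of fatty acid oxidation, 2 were higher in dLGN of embBE mice (Acadl by 0.79 and Hadha by 0.80) and 0 in VB. None of 10 genes of the isoprenoid branch was called in either direction.

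VB arrays were then set against dLGN arrays of the same day and condition. At P4 several genes of cholesterol synthesis and desaturation were higher in VB than in dLGN in both conditions, and 0 of the 34 were lower. In embBE mice 8 were higher (Fdps, Tm7sf2, Nsdhl, Sc5d, Fads2, Scd1, Scd2 and Stard4), against 4.33% of all genes, and 0 lower, against 4.11%. In controls 5 were higher (Tm7sf2, Sc5d, Insig1, Scd1 and Stard4), against 1.73%, and 0 lower, against 1.48%. Tm7sf2, Sc5d, Scd1 and Stard4 were called in both. These calls rest on the brightest probe sets. In a fit of every probe set, other bright probe sets of uncalled genes also had an adjusted p under 0.05 in embBE mice. They were of Hmgcs1 (0.87), Mvd (1.27), Lss (0.70) and Cyp51 (0.72), while the third probe set of Lss gave -0.22. At an unadjusted p under 0.05 there were 18 of 34 in embBE mice (15 higher, 3 lower), against 34.5% of all genes, and 12 in controls (11 higher, 1 lower), against 13.2%. The median difference was 0.36 in embBE mice and 0.37 in controls, beside -0.09 and -0.03 over all genes, with 25 and 30 of the 34 genes above 0. All 34 genes were brighter than the median probe set. With dimmer genes left out, the medians over all genes were 0.05 and 0.01. In embBE mice the median of the 34 genes was 0.14 with the actin signal as a covariate and 0.23 under cyclic loess. In controls it was 0.22 with the covariate and 0.25 without P4-dLGN-control 40_1.

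**Figure D5:**
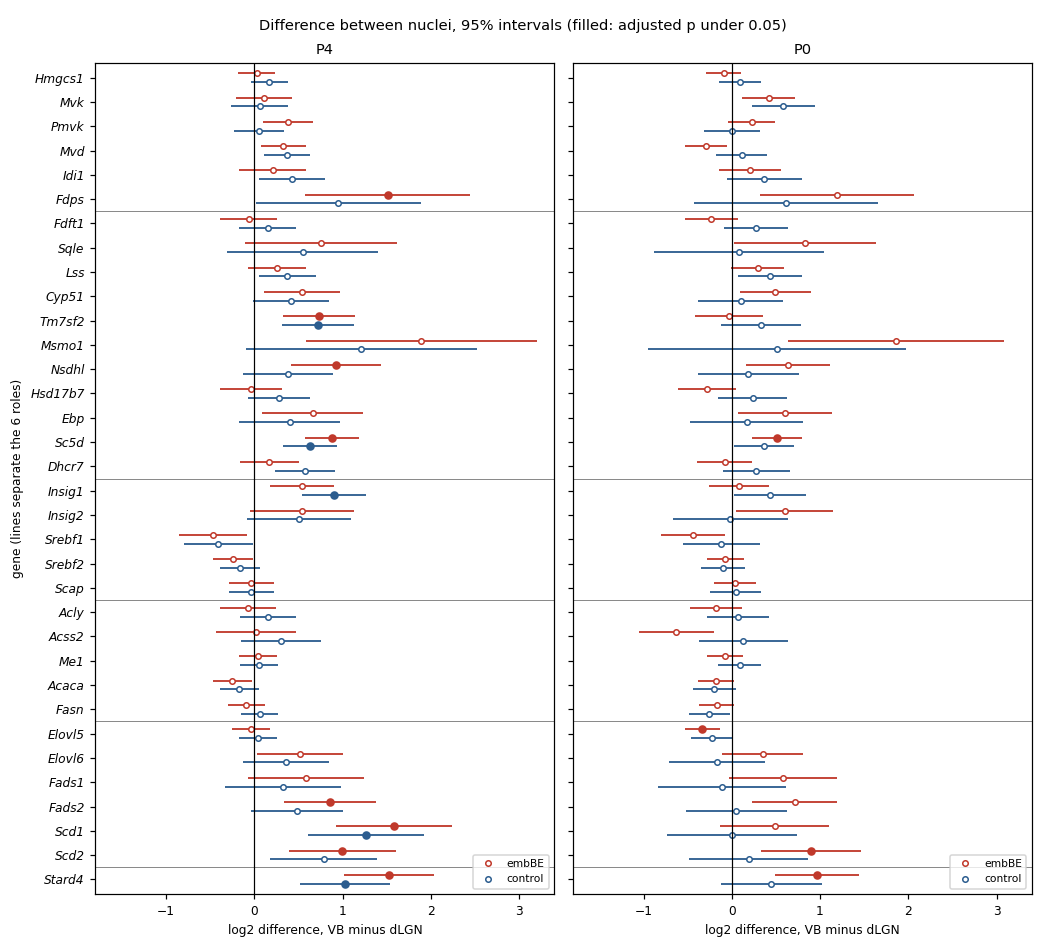
Difference of VB minus dLGN (log2) for the 34 genes by role, at P4 and P0 in embBE and control mice, with 95% intervals; filled points have an adjusted p under 0.05. Stard4 stands at 1.53 in embBE and 1.03 in control mice at P4, and no gene is filled in controls at P0.

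Stard4 had the lowest adjusted p in embBE mice. It read 10.20, 10.42 and 10.35 on the P4 VB embBE arrays, against 8.90, 8.66 and 8.83 on the P4 dLGN embBE arrays, and was higher by 1.53 ± 0.24 (adjusted p = 0.000567). In controls it read 10.35, 9.12 and 9.99 in VB, against 9.11, 8.75 and 8.52 in dLGN, and was higher by 1.03 ± 0.24 (adjusted p = 0.0196). The lowest VB control array, 36_3, almost touched the highest dLGN array, although the groups did not overlap. Its other probe sets moved alike, by 1.53 and 0.89 in embBE and by 1.28 and 0.79 in control mice, each with an adjusted p under 0.05 in a fit of every probe set.

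Of the cholesterol enzymes, Sc5d read 8.47, 8.65 and 8.55 on the P4 VB embBE arrays, against 7.71, 7.68 and 7.62 on the P4 dLGN embBE arrays (0.88 ± 0.15, adjusted p = 0.000827), and 8.25, 8.15 and 8.54 on the P4 VB control arrays, against 7.97, 7.64 and 7.42 on the P4 dLGN control arrays (0.63 ± 0.15, adjusted p = 0.0163). The groups did not overlap in either condition. The third probe set of Sc5d went the other way, at -0.28 in embBE and -0.014 in control mice, while the second gave 1.16 and 0.65. Tm7sf2 read 9.52, 10.06 and 9.30 in VB, against 8.78, 9.12 and 8.78 in dLGN of embBE mice, and 9.70, 9.49 and 9.91, against 8.92, 8.93 and 9.07, in controls. The differences were 0.73 ± 0.20 in both (adjusted p = 0.027 and 0.0434), and here too no dLGN array reached a VB array. Nsdhl read 9.94, 10.34 and 10.07 in VB, against 9.48, 9.0 and 9.09 in dLGN of embBE mice (0.93 ± 0.25, adjusted p = 0.0256), and its difference in controls was 0.38. Fdps, which makes farnesyl diphosphate for sterols and for prenylated proteins, read 7.44, 7.93 and 7.69 in VB, against 6.72, 5.82 and 5.99 in dLGN of embBE mice (1.51 ± 0.45, adjusted p = 0.0425). It overlapped in controls (0.95 ± 0.45, adjusted p = 0.365), and its other probe set, which was dim, gave -0.11. Msmo1 had the widest difference in embBE mice, 1.89 ± 0.63, without a call (adjusted p = 0.0612).

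Of the regulators, Insig1 was called in controls. It read 9.13, 9.68 and 9.46 on the P4 VB control arrays, against 8.42, 8.58 and 8.56 on the P4 dLGN control arrays, with no overlap, and was higher by 0.90 ± 0.17 (adjusted p = 0.00379). In embBE mice it read 9.08, 9.34 and 9.34 in VB, against 8.43, 9.02 and 8.67 in dLGN (0.54 ± 0.17, adjusted p = 0.0561). Srebf1 pointed the other way, with every VB array below every dLGN array in both conditions (-0.47 ± 0.19 in embBE and -0.41 ± 0.19 in control mice), but without a call (adjusted p = 0.0985 and 0.344). The 5 genes of fatty acid synthesis gave 0 calls, with medians of -0.07 in embBE and 0.06 in control mice. The medians were 0.66 and 0.41 for the 11 genes from squalene to cholesterol, and 0.72 and 0.42 for the 6 of elongation and desaturation. These medians rest on the brightest probe sets. In embBE mice the second probe sets, also bright, gave 0.58 for Acly, 0.895 for Acss2 and 0.79 for Me1. Their brightest gave -0.07, 0.015 and 0.04. In controls the other bright probe sets reached 0.65, 0.57 and 0.15. Acaca and Fasn had no second bright probe set.

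Of the desaturases, Scd1 read 9.98, 10.32 and 10.13 on the P4 VB embBE arrays, against 8.79, 8.47 and 8.43 on the P4 dLGN embBE arrays (1.58 ± 0.32, adjusted p = 0.00413). In controls it read 10.21, 9.37 and 10.29, against 9.17, 8.56 and 8.34 (1.27 ± 0.32, adjusted p = 0.0269). No dLGN array reached a VB array, but the second probe set of Scd1 gave only 0.14 and 0.19. Scd2 read 13.03, 12.87 and 13.11 in VB, against 12.23, 11.84 and 11.94 in dLGN of embBE mice (1.0 ± 0.29, adjusted p = 0.0398), and Fads2 read 10.56, 10.61 and 11.03, against 10.12, 9.72 and 9.79 (0.86 ± 0.25, adjusted p = 0.0383). In controls these overlapped, with differences of 0.79 and 0.48.

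At P0, in embBE mice, 3 of the 34 genes were higher in VB (Sc5d, Scd2 and Stard4), against 3.53% of all genes, and 1 was lower (Elovl5), against 3.92%, whereas in controls 0 were higher and 0 lower, against 0.555% and 1.01%. At an unadjusted p under 0.05 there were 16 in embBE mice (12 higher, 4 lower), against 29.1% of all genes, and 5 in controls (4 higher, 1 lower), against 9.09%. Stard4 read 9.54, 9.24 and 9.28 on the P0 VB embBE arrays, against 8.44, 8.06, 8.64 and 8.41 on the P0 dLGN embBE arrays (0.96 ± 0.23, adjusted p = 0.0144). Sc5d read 8.0, 7.83 and 7.80, against 7.38, 7.15, 7.47 and 7.46 (0.51 ± 0.14, adjusted p = 0.028), and Scd2 read 12.39, 12.31 and 12.28, against 11.71, 10.75, 12.13 and 11.12 (0.90 ± 0.27, adjusted p = 0.0482). The VB arrays were above the dLGN arrays for all 3 genes. Elovl5 read 11.87, 11.99 and 11.89 in VB, against 12.29, 12.26, 12.07 and 12.38 in dLGN, with a difference of -0.33 ± 0.10 (adjusted p = 0.0394), although its second probe set gave 0.76. The other probe sets of Scd2 gave -0.64 and -0.21. In controls Mvk (0.58 ± 0.17) came nearest to a call (adjusted p = 0.111).

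Array quality moved with the nucleus, most clearly in embBE mice. With the actin 3′ minus 5′ signal as a covariate, 3 of the 34 genes were called at P4 in embBE mice (Mvd, Dhcr7 and Stard4) and 0 at P0. Stard4 then differed by 0.88 at P4, Scd1 by 0.70 and Fdps by 0.06. In controls at P4, where that signal overlapped between nuclei, 8 genes were called with it. The same signal of the Gapdh control probe sets did not overlap there. It lay between 3.03 and 3.47 in VB, against 3.63 to 4.52 in dLGN, and was not used as a covariate. Without the 6 arrays of narrowest spread, 18 genes were called at P4 in embBE mice, 8 at P4 in controls, 1 at P0 in embBE mice (Stard4) and 1 at P0 in controls (Mvk). Both settings were chosen after the data were seen. Leaving out single arrays at P4 in embBE mice gave 7 calls without P4-dLGN-embBE 24_4, 5 without P4-dLGN-embBE 36_2, 4 without P4-VB-embBE 24_4 or 40_3, and 3 without P4-VB-embBE 36_2 or P4-dLGN-embBE 40_3, always with Sc5d, Scd1 and Stard4. At P4 in controls it gave between 1 and 6, always with Insig1, of which 1 without P4-dLGN-control 36_3 or 40_1 and 2 without P4-VB-control 24_2 or 40_1. At P0 in embBE mice 17 genes were called without P0-dLGN-embBE 39_4, 0 without P0-dLGN-embBE 39_3 or P0-VB-embBE 35_3, 1 (Stard4) without P0-dLGN-embBE 39_2, P0-VB-embBE 39_3 or P0-VB-embBE 39_4, and 2 (Sc5d and Stard4) without P0-dLGN-embBE 35_3.

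Markers of glia and of neurons also differed between the nuclei, and the shares of all genes called at P4 are those given above. Of 14 oligodendrocyte lineage markers, 3 were higher in VB at P4 in each condition (Mbp by 1.03 in embBE and 1.57 in control mice, Gpr17 by 0.86 and 0.90, Bcas1 by 0.80 and 1.10) and 1, Mag, was lower (-0.53 and -0.39). The mean level of that list lay between 8.30 and 8.45 in VB against 8.11 to 8.29 in dLGN of embBE mice, and between 8.36 and 8.55 against 8.03 to 8.18 in controls. Of 11 astrocyte markers, 2 were higher in VB at P4 in embBE mice (S100b by 1.55 and Slc1a2 by 0.79) and 1 lower (Gfap, -0.89), and 1 was higher in controls (S100b by 1.45). At P0 in embBE mice 4 astrocyte markers were higher and 1 lower, and 5 of 9 cell cycle genes were higher. Of all genes, 3.53% were higher and 3.92% lower there. The actin 3′ minus 5′ signal did not overlap between the nuclei in that comparison. The mean level of the pan-neuronal markers at P4 lay between 12.26 and 12.36 in VB against 11.56 to 12.11 in dLGN of embBE mice. In controls it overlapped (11.93 to 12.36 against 11.5 to 12.38). At P0 in embBE mice it was 12.07 to 12.13 against 11.4 to 12.06. In each group this level was higher on the array of widest SD of all signals than on that of narrowest SD. In P4 dLGN controls these arrays read 12.38 (24_2) and 11.5 (40_1), and in P0 VB controls 12.17 (35_2) and 11.45 (35_1). The markers of GABAergic neurons were lower in VB at P4, at 5.43 to 5.71 against 5.85 to 6.05 in embBE mice. The part of these cells in the differences between nuclei was not tested, nor that of array quality in the marker levels.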

How the data were processed

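RNA of microdissected VB and dLGN was amplified in repeated rounds by the authors and hybridized to Affymetrix mouse genome arrays, 1 per sample. The deposited values are log2 signals after RMA (no version is given in the sources used here), for 45101 probe sets, and were used as deposited, with every array column mapped to a sample. They hold no counts, so the number of arrays limits the precision. Probe sets took the gene symbol of the platform annotation: 34958 had 1 symbol, 932 several and 9211 none listed, and the brightest of a gene stood for it (18194 genes). The 34 genes had 79 probe sets.

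Differences were fitted with limma 3.58.1 (lmFit and eBayes) in R 4.3.3, on the 12 arrays of a nucleus for condition and age, and on all 24 arrays with the label number pair as random block (correlation -0.0196) between nuclei. P-values were adjusted by Benjamini-Hochberg over all genes. Per-array values are given for called genes, with at most the 4 largest changes of each role and comparison, and related genes are named where called for age, up to 3 a list. Other genes were named after their values were seen. The 34 genes and the lists were chosen with earlier results of these data known. The alternatives were other probe sets, their mean, cyclic loess, median centring, dim genes left out, eBayes with trend and robust, other array sets, the methods' t-test, the first label number as a block, and each array left out. The procedure was tested on simulated data. Figures were drawn with matplotlib 3.10.9.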

Additional observations from a re-analysis of the deposited data

Results flagged for a closer look

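The embBE difference of Mvd was 0.66 ± 0.16 (SE) greater at P4 than at P0 in VB. It passed the threshold of the study for a difference between the days, with an adjusted p of 1 over all genes in limma. The embBE difference of Acss2 differed by -0.76 ± 0.32 for VB minus dLGN at P0, which passed the same threshold for a difference between the nuclei, with an adjusted p of 0.551. Its second probe set, also bright, had the opposite signs, with embBE differences of 0.20 in VB and -0.34 in dLGN, and gave 0.54. In the group of 4 arrays, none of the 34 genes had an array that stood apart from the other arrays by Dixon's test.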

How the results depend on the processing

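Of 306 counts of called genes under alternative settings, 228 stayed within 1.5 times the reported count and 78 did not, and of 357 values of named genes 234 stayed on the same side of the threshold and 122 were no longer past it. The cause was not tested. The counts of genes called for P4 against P0 were, in VB of embBE mice (3), 5 with the mean of the probe sets, 5 with all 24 arrays, 19 with only the 2 groups compared, 11 with the actin covariate and 15 without the 6 arrays of narrowest spread. In VB of controls (1) they were 4 with the mean of the probe sets, 3 under cyclic loess, 0 with centred arrays, 0 with trend and robust, 2 with all 24 arrays, 0 with only the 2 groups, 7 with the actin covariate and 5 without the 6 arrays. In dLGN of embBE mice (0) it was 1 (Fasn) with the mean of the probe sets, centred arrays, dim genes left out, all 24 arrays or the actin covariate, and in dLGN of controls (1) it was 0 under cyclic loess or with only the 2 groups and 2 with all 24 arrays. Between nuclei the counts were, for P4 embBE mice (8), 3 with the actin covariate and 18 without the 6 arrays, for P4 controls (5), 8 and 8, for P0 embBE mice (4), 2 with the mean of the probe sets, 7 without dim genes, 0 with the actin covariate and 1 without the 6 arrays, and for P0 controls (0), 1 without the 6 arrays. For embBE against control in dLGN at P0 (0) it was 1 (Fads2) with all 24 arrays. For the embBE difference between days in dLGN (0) it was 2 with the actin covariate, and between nuclei at P0 (1) it was 0 with the mean of the probe sets, 3 under cyclic loess, 0 with the actin covariate and 0 without the 6 arrays. The actin covariate and the fit without 6 arrays were added after the data were seen.

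Leaving out 1 array in turn gave, for embBE against control, 0 to 2 genes in VB at P4, 0 to 3 in VB at P0, 0 in dLGN at P4 and 0 to 3 in dLGN at P0. For age it gave 0 to 2 in VB of embBE mice, 0 to 6 in VB of controls, 0 in dLGN of embBE mice and 0 to 1 in dLGN of controls, and between nuclei 3 to 7, 1 to 6, 0 to 17 and 0 for P4 embBE, P4 control, P0 embBE and P0 control mice. For the embBE difference it gave 0 to 1 between days in VB and 0 to 1 in dLGN, and between nuclei 0 to 1 at P4 and 0 to 6 at P0. Signs turned for Elovl5 (0.21 with the mean of its probe sets, 0.76 with the second), Fdps (-0.11), Sc5d (-0.28, -0.014 and -0.23 with the third), Scd2 (-0.64 and -0.21) and Acss2 (0.54 between nuclei with the second). These are the called values. Over the members with 2 or more bright probe sets, 21 in all, these had 1 sign for 5 to 18 genes, depending on the comparison. The methods' t-test called 0 of the 34 genes in all 4 embBE comparisons.

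Only some arrays with the same label numbers deviated together. For VB and dLGN 3 of 11 pairs had a correlation over 0.1 (-0.552 to 0.718), and for embBE and control at P4 3 of 6 (-0.195 to 0.758). The methods of the study name no such block, so the numbers were not used as a fixed pairing. They entered the fits between nuclei only as a random block (correlation -0.0196). With the first label number as a block 0 of the 34 genes were called for embBE against control in all 4 comparisons and the Mvd difference between days was 0.62, and without the random block the counts between nuclei stayed at 8, 5, 4 and 0.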
